A study of Mus musculus with 6 samples.

Results

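Small nucleolar RNAs were measured in liver RNA of male Balb/c and Balb/cBy mice, related inbred substrains, after a high-fat diet. The gene set was selected on values of the same comparison, the strain difference of Snord116 and the spread of these RNAs between arrays, so both are described here without a test. Its members were taken as all probe sets of the array whose annotated symbols include a small nucleolar RNA gene (symbols that begin with Snord, Snora or their older spelling, followed by a number). This gave 118 of 41345 probe sets, and 102 after rows with identical values in all 6 arrays were counted once. Snord116 took up 16 of the 118 rows, which all held the same values and count here as 1 probe set. The others were 64 probe sets of the C/D box class and 37 of the H/ACA box class, and no probe set named Snord115. Of the 102, 77 listed only small nucleolar RNA symbols, and 25 also listed another gene, in most cases the host gene, so that their signal may come from either RNA.

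Small nucleolar RNAs are short nuclear RNAs that pair with ribosomal or spliceosomal RNA and guide its chemical modification. C/D box RNAs work with the methyltransferase fibrillarin and direct 2′-O-methylation, and H/ACA box RNAs work with dyskerin and direct the change of uridine to pseudouridine. Most are cut from introns of host genes, many of which encode ribosomal proteins or are long non-coding RNAs with few other known products. Snord116 is an exception in its targets, since it has no established site in ribosomal RNA. Its many copies lie in the imprinted Snrpn region, are transcribed from the paternal chromosome, mainly in neurons, and are lost in Prader-Willi syndrome.

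Each group held 3 arrays, from 3 mice that the labels call biological replicates. Balb/c and Balb/cBy mice were treated alike: they lived in individual cages, were fed for 12 weeks from 8 weeks of age on food in which fat supplied 58% of the energy, and gave liver at 20 weeks. No mice on a control diet were analysed, so a difference between substrains cannot be told apart from a difference in their response to the diet. The values are log2 units per probe set after the authors' RMA normalization. They depend on how each probe binds, so levels of different probe sets are not compared. Differences are Balb/cBy minus Balb/c, with the standard error (SE) from limma.

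Array medians lay between 7.66 and 7.74. Pairs of arrays correlated at 0.9721 to 0.9885 across the table. The liver marker Alb had means of 14.2 in both groups. The 6 neuron markers had a median difference of -0.01. In whole liver, fewer cells of a type and less RNA per cell cannot be told apart. For the small nucleolar RNAs, Balb/c replicate 3 and Balb/cBy replicate 1 stood apart from the other 4 arrays, as described below, and results that rest on those arrays are given with and without them.

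Of the 102 probe sets, 99 carried RNAs that lie inside another gene in RefSeq (GRCm38.p6). The containing gene was protein-coding for 74 and only a long non-coding RNA for 25. Snord13, Snord89 and Snord118 lay in none. Host genes are known for a start site in a run of pyrimidines, the terminal oligopyrimidine (TOP) signal by which growth signals control the translation of ribosomal protein messages. The letters CTTTC, which begin many such runs, were therefore searched for in the 50 bases around each annotated start, 25 on either side. They occurred on the gene's strand at 13 of 68 start sites of genes that contain the measured RNAs (19.1%), against 6.75% of all 32851 start sites in the RefSeq table. On the other strand, where the same motif reads GAAAG, the shares were 1.47% and 6.1%. Some of the hosts that each hold several of the RNAs described below, and Snhg14, the host of Snord116, are shown with the motif in capitals. They were picked by hand, and other hosts of several RNAs are not shown. How many of them hold the motif therefore does not stand for the 68 start sites. Each sequence runs 5′ to 3′ on the gene's strand.

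Snhg12, chr4:132308653-132308702, plus strand: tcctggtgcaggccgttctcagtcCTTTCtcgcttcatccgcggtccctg
Snhg16, chr11:116671635-116671684, plus strand: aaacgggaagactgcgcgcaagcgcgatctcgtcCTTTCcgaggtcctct
Rpl13a, chr7:45128721-45128770, minus strand: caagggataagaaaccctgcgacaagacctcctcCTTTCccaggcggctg
Snhg3, chr4:132353662-132353711, minus strand: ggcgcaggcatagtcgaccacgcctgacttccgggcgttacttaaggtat
Snhg14, chr7:60450153-60450202, minus strand: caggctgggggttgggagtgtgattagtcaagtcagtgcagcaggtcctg

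The motif lay in the window of Snhg12, Snhg16 and Rpl13a. It was not in that of Snhg3 or Snhg14, which says only that these letters are absent from these 50 bases.

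Snord116 was higher in all 3 Balb/cBy livers than in all 3 Balb/c livers. Its values were 8.52, 8.66 and 8.51 in Balb/c and 9.37, 10.23 and 9.66 in Balb/cBy. The Balb/c arrays lay close together, and every Balb/cBy array stood above them. The means were 8.56 ± 0.085 and 9.75 ± 0.44 (SD, n = 3 each), a difference of 1.19 (SE 0.21), or 2.28-fold. Snord116 was among the results in view when this gene set was chosen, so the difference is a description. In the limma fit over all 41345 probe sets its Benjamini-Hochberg adjusted p was 0.499, and it did not pass 0.05. That fit held all 16 of its identical rows. With identical rows counted once in the whole table, the lowest adjusted p of any small nucleolar RNA in limma was 0.864. A difference at least as high was found in 47 of 40538 distinct rows of the table, or 0.116%. That count includes Snord116 itself, and the share gives its rank and is not a test.

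A further 15 probe sets, identical to each other in all arrays, were named Gm26504 alone, a gene for which RefSeq gives Snord116 as a synonym. They fall outside the symbol rule. They read 8.65, 8.84 and 8.62 in Balb/c and 9.56, 10.37 and 9.79 in Balb/cBy, a difference of 1.20 (SE 0.21). The groups did not overlap here either. RefSeq holds 17 genes named Snord116l, copies of a repeated unit, so both groups of probe sets may read the same RNAs and are not taken as independent measurements. The signal cannot be assigned to single copies.

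The genes around Snord116 did not show a difference of that size. Snhg14, the long non-coding RNA from whose introns Snord116 is cut, read 5.95, 6.03 and 6.18 in Balb/c and 5.96, 5.94 and 5.99 in Balb/cBy. Its groups overlapped, with a difference of -0.09 (SE 0.10). These values lay below every array median (7.66 to 7.74), and whether so low a signal reports the transcript was not tested. Ipw, a non-coding RNA of the same paternal transcript, differed by 0.10 (SE 0.14). Both probe sets that list Snrpn, the splicing factor gene at the start of the region, together with Snurf overlapped between groups, with differences of -0.06 and 0.27. Ube3a, a ubiquitin ligase gene to which Snhg14 runs antisense, differed by -0.36 (SE 0.23). Ndn and Magel2, protein-coding neighbours that are also silenced on the maternal chromosome, differed by 0.04 and -0.09. Of 8 genes measured from a list of 10 for the region, none reached an unadjusted p of 0.05 in limma and none an adjusted one, and their median difference was -0.05.

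**Figure D1:**
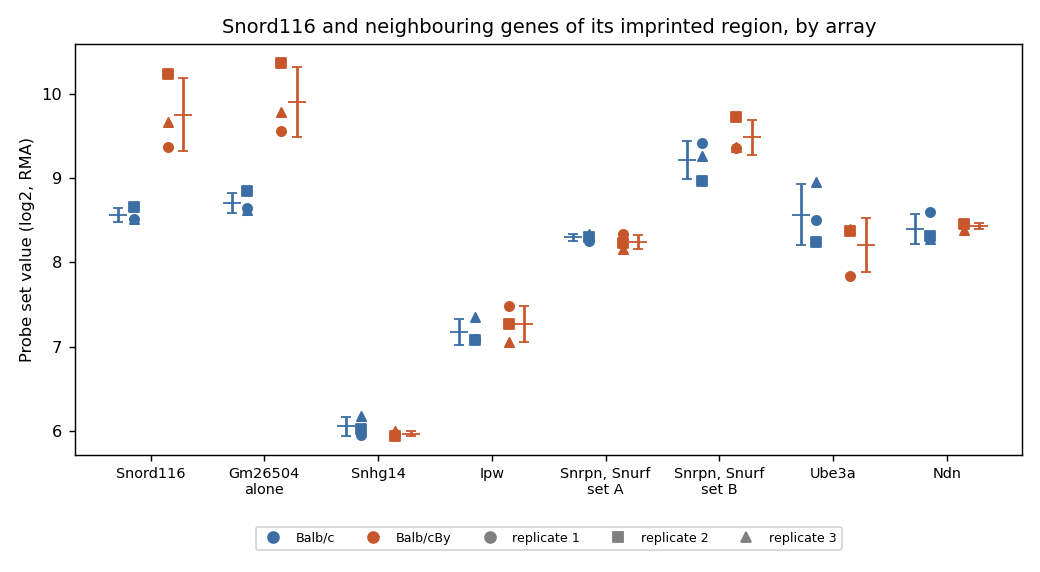
Probe set values (log2, RMA) of Snord116, Gm26504 and neighbouring probe sets of the imprinted region in each array, with the mean and SD of each group as a bar beside the points. Only Snord116 and Gm26504, among the probe sets drawn, have all 3 Balb/cBy arrays above all 3 Balb/c arrays.

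By Pearson correlation with Snord116 over the 6 arrays, the closest of 23446 other probe sets with 1 symbol were Rnf148 (0.999), Gm26504 (0.999) and Tspyl2 (0.996). Rnf148 and Tspyl2 moved over a smaller range, with differences of 0.27 (SE 0.09) and 0.25 (SE 0.10). With 6 arrays and that many candidates the ranking is a description.

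Across the remaining 101 probe sets the groups mostly overlapped. No small nucleolar RNA passed an adjusted p of 0.05 in limma, where the share over all probe sets was 0%. At an unadjusted p under 0.05, 2 of 102 were higher (Snord116 and Snord19) and 1 was lower (Snord90), against 2.38% and 1.26% of all probe sets. All Balb/cBy arrays lay above all Balb/c arrays for Snord116 alone, against 4.35% of all probe sets, and below them for Snord90 alone, against 3.57%. The size of the differences was another matter: 7 of 102 (6.86%) were higher by at least 0.5, against 1.72% of all probe sets. Of these, 6 were other C/D box sets and 1 was Snord116, on whose difference the gene set was selected. Lower by at least 0.5 were 10 of 102 (9.8%), against 0.849%. The spread between arrays was also wider than that of other probe sets, as given below.

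The box classes leaned in different directions. Among other C/D box probe sets 47 of 64 (73.4%) had a higher mean in Balb/cBy, and among H/ACA box probe sets 11 of 37 (29.7%), where the share of all probe sets above 0 was 48.9%. The median differences were 0.11 and -0.05, beside 0.00 for all probe sets. Of the 10 that were lower by at least 0.5, 7 were H/ACA box RNAs. Neither lean kept its direction when single arrays were left out. Without Balb/c replicate 3, the C/D box median was -0.05 with 24 of 64 above 0, and the H/ACA box median was -0.35 with 2 of 37 above 0. Without Balb/cBy replicate 1 they were 0.37 and 0.16, with 56 of 64 and 26 of 37 above 0. Without Balb/cBy replicate 2 the C/D box median was -0.01, and without Balb/c replicate 2 the H/ACA box median was 0.12. With Balb/c replicate 3 and Balb/cBy replicate 1 both left out, the medians were 0.09 and -0.07, and 43 of 64 and 14 of 37 lay above 0.

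**Figure D2:**
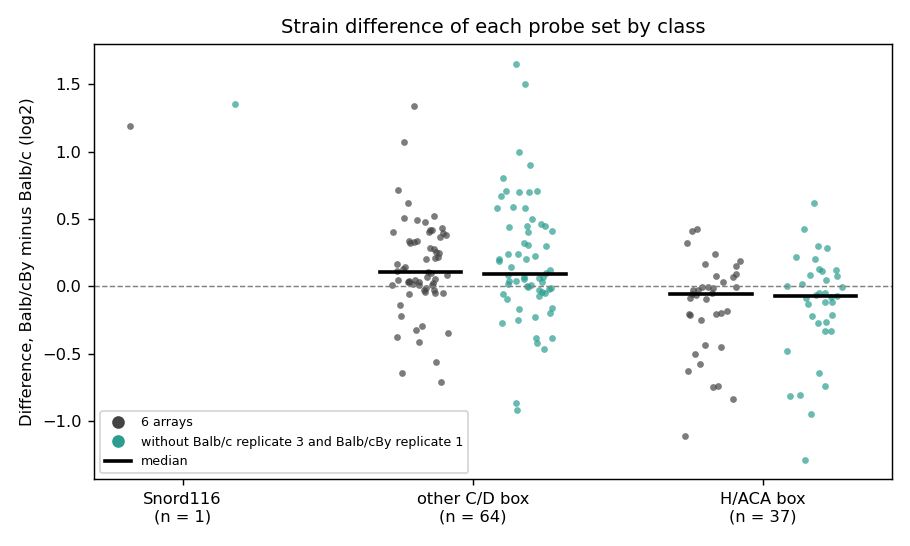
Strain difference (log2, Balb/cBy minus Balb/c) of each probe set in the 3 classes, over 6 arrays and without the pair of low arrays, with horizontal lines at the class medians. The C/D box points centre above 0 (median 0.11) and the H/ACA box points slightly below (median -0.05), with wide overlap, and Snord116 is at 1.19.

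Among C/D box RNAs that are higher in Balb/cBy by their means, Snord72, from an intron of the ribosomal protein gene Rpl37, differed most. It read 6.21, 5.21 and 4.32 in Balb/c and 5.02, 7.45 and 7.27 in Balb/cBy. Balb/cBy replicates 2 and 3 lay above every Balb/c array, but replicate 1 lay below 2 of them, and the difference of 1.34 had an SE of 0.73. Snord4a, from Rpl23a, was measured by a set that also lists Tlcd1 and lay between 4.72 and 5.58 in Balb/c and read 5.21, 7.25 and 6.06 in Balb/cBy. Its difference of 1.07 (SE 0.50) was carried by Balb/cBy replicates 2 and 3. Snord70 comes from Nop58, which encodes a core protein of the C/D box particle itself. It read 8.76, 8.17 and 7.56 in Balb/c and 7.72, 9.71 and 9.21 in Balb/cBy, a difference of 0.72 (SE 0.53) with overlapping groups. Snord1b, from Snhg16, differed by 0.62 (SE 0.48), with Balb/cBy replicate 2 at 7.02 and no other array above 5.77. All values of Snord72, Snord4a and Snord1b lay below every array median (7.66 to 7.74). Whether so low a signal reports these RNAs was not tested.

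Snord19, from the nucleostemin gene Gnl3, was named because it was 1 of 3 under the unadjusted threshold, after its values were seen. It read 5.28, 5.71 and 4.90 in Balb/c and 5.58, 5.99 and 5.88 in Balb/cBy, a difference of 0.52 (SE 0.22). Only Balb/cBy replicate 1 fell within the Balb/c range. These values, too, lay below every array median.

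On the lower side, Snord90 from Rc3h2 read 5.54, 5.27 and 5.13 in Balb/c and 4.12, 4.80 and 5.09 in Balb/cBy. The groups did not overlap, but the gap between the nearest arrays was small. The difference was -0.65 (SE 0.25), and all of its values lay below every array median. Snord71 read 11.93, 12.33 and 10.28 in Balb/c and 9.87, 10.92 and 11.61 in Balb/cBy, with a difference of -0.71 (SE 0.62). Its lowest arrays were Balb/cBy replicate 1 and Balb/c replicate 3, and the groups overlapped. Snord37, from the elongation factor gene Eef2, differed by -0.56 (SE 0.58), which was smaller than its SE.

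Snord104 read 13.84, 13.92 and 13.69 in Balb/c and 12.96, 13.46 and 13.91 in Balb/cBy. Balb/cBy replicate 1 was lowest and replicate 3 lay inside the Balb/c range, and the difference was -0.38 (SE 0.23). Snord89 differed by 0.13 (SE 0.20), Snord57 (in a set with Nop56) by 0.28 (SE 0.16) and Snord49b by 0.38 (SE 0.30). All 4 overlapped between groups.

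The ribosomal protein gene Rpl13a carries Snord32a, Snord33, Snord34 and Snord35a, of which Snord32a, Snord33 and Snord35a are known as mediators of cell death under lipid overload. All 4 had higher means in Balb/cBy, by 0.04 to 0.40. Snord33 read 9.01, 9.04 and 8.85 in Balb/c and 9.01, 9.68 and 9.18 in Balb/cBy. Balb/cBy replicates 2 and 3 lay above the Balb/c arrays and replicate 1 among them, and the difference was 0.32 (SE 0.18). Snord34 differed by 0.40 (SE 0.30), Snord35a by 0.20 (SE 0.26) and Snord32a by 0.04 (SE 0.15). Only Snord35a has a probe set that does not also list Rpl13a, which has no probe set of its own here.

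Some C/D box RNAs serve ribosomal RNA in other ways than by guiding its methylation. Snord118 (U8), needed for the large subunit's RNAs, differed by 0.11 (SE 0.37). Snord13, which serves the acetylation of 18S ribosomal RNA by Nat10, read 11.46, 12.35 and 10.45 in Balb/c and 10.57, 11.63 and 11.42 in Balb/cBy. Its difference of -0.22 (SE 0.49) was within the spread.

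Among H/ACA box RNAs the largest differences were downward. Snora74a (U19), from Snhg4, read 10.32, 11.24 and 8.89 in Balb/c and 8.12, 9.29 and 9.69 in Balb/cBy. Balb/c replicates 1 and 2 lay above every Balb/cBy array, and Balb/c replicate 3 lay below 2 of them. The difference was -1.11 (SE 0.63).

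Snora73a and Snora73b (U17), both from Snhg3, take part in 18S ribosomal RNA processing. Snora73b read 12.23, 12.65 and 10.90 in Balb/c and 9.86, 10.79 and 12.62 in Balb/cBy, a difference of -0.84 (SE 0.74). Balb/cBy replicate 3 matched the upper Balb/c arrays, so the groups overlapped. Snora73a differed by -0.75 (SE 0.70). The RNAs are close in sequence, and the sets may share signal. Snora17 had a pair of probe sets, both of which also list its host Snhg7. The set with the larger difference read 11.04, 11.64 and 8.65 in Balb/c and 8.33, 9.90 and 10.89 in Balb/cBy. Its difference of -0.74 (SE 0.90) was smaller than its SE, and its within-group SD of 1.44 was the highest of the H/ACA box class. The other Snora17 set differed by -0.58 (SE 0.65), also smaller than its SE, and its groups overlapped as well.

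Upward differences in this class were smaller. Snora15, from the chaperonin gene Cct6a, differed by 0.43 (SE 0.40), Snora2b by 0.41 (SE 0.64), Snora28 by 0.32 (SE 0.42) and Snora16a, from Snhg12, by 0.24 (SE 0.63). Snora15 read 12.10, 11.96 and 10.77 in Balb/c and 11.46, 12.30 and 12.35 in Balb/cBy, with the lowest value in Balb/c replicate 3. Snora33, from Rps12, had a pair of probe sets, which differed by -0.03 and -0.25, with within-group SDs of 0.18 and 0.97. Snora52 (listed with Rplp2) differed by -0.01 (SE 0.26) and Snora34 by 0.15 (SE 0.44). Snora31, from Tpt1, had a within-group SD of 1.36. It read 9.07, 10.03 and 8.65 in Balb/c and 6.88, 9.09 and 10.41 in Balb/cBy, and its difference of -0.45 (SE 0.84) was smaller than its SE.

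Snora36b shares its probe set with Mir664, because this RNA is also the source of a microRNA. Both mature microRNAs lie inside the annotated Snora36b gene (RefSeq, GRCm38.p6, plus strand), at chr1:185242975-185242995 and chr1:185243012-185243033, and are shown with the seed, bases 2 to 8, in capitals.

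mmu-miR-664-5p: cUGGCUGGggaaaaugacugg
mmu-miR-664-3p: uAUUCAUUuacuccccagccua

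The array value of that set therefore does not separate the guide RNA from its microRNAs. It belonged to the 25 sets for which the arrays described next were not the lowest pair.

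The spread between arrays was wide in both box classes. The median within-group SD of the 102 probe sets was 0.57, against 0.16 for all probe sets. It was 0.52 for other C/D box RNAs and 0.71 for H/ACA box RNAs, and 0.31 for Snord116. Sets that list only small nucleolar RNAs had a median of 0.60, and those that also list another gene 0.40. The width did not follow the level. Among sets with a mean of 4 to 6, 9 of 9 had an SD above the median of all probe sets in that range, among those at 6 to 8 18 of 21, at 8 to 10 32 of 35, and at 10 and over 35 of 37. The medians in those ranges were 0.64, 0.37, 0.57 and 0.63, against 0.19, 0.15, 0.16 and 0.20 for all probe sets. For comparison, 610 microRNA probe sets had a median SD of 0.17. Over the 77 sets with only small nucleolar RNA symbols, annotated length had a Spearman correlation of 0.24 with the SD and -0.30 with the difference. Box class and length go together (median 69 bases for C/D and 122 for H/ACA). Within the 49 C/D box sets the correlations were -0.10 with the SD and -0.26 with the difference. Within the 27 H/ACA box sets they were 0.35 and -0.10.

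Most members were low in the same arrays. Balb/c replicate 3 was the lowest array for 54 of 102 probe sets and Balb/cBy replicate 1 for 38. They were together the lowest pair for 77 of 102 (75.5%), against 10.2% of all probe sets, and the highest pair for 1 of 102, against 11.9%. The lowest pair was found for 46 of 64 other C/D box sets and 31 of 37 H/ACA box sets. As medians of each probe set's deviation from its own mean, the H/ACA box arrays lay at 0.15, 0.54 and -0.62 in Balb/c and at -0.76, 0.19 and 0.37 in Balb/cBy. C/D box arrays lay at 0.06, 0.19 and -0.56, and at -0.48, 0.33 and 0.26. Over all probe sets every array lay within 0.02 of 0. The pattern held 1 array of each substrain. Without these arrays the median within-group SD of the small nucleolar RNAs was 0.23, against 0.13 for all probe sets. The arrays were picked as the low ones for these RNAs, and the SD then rests on fewer arrays. Its fall is therefore a description.

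**Figure D3:**
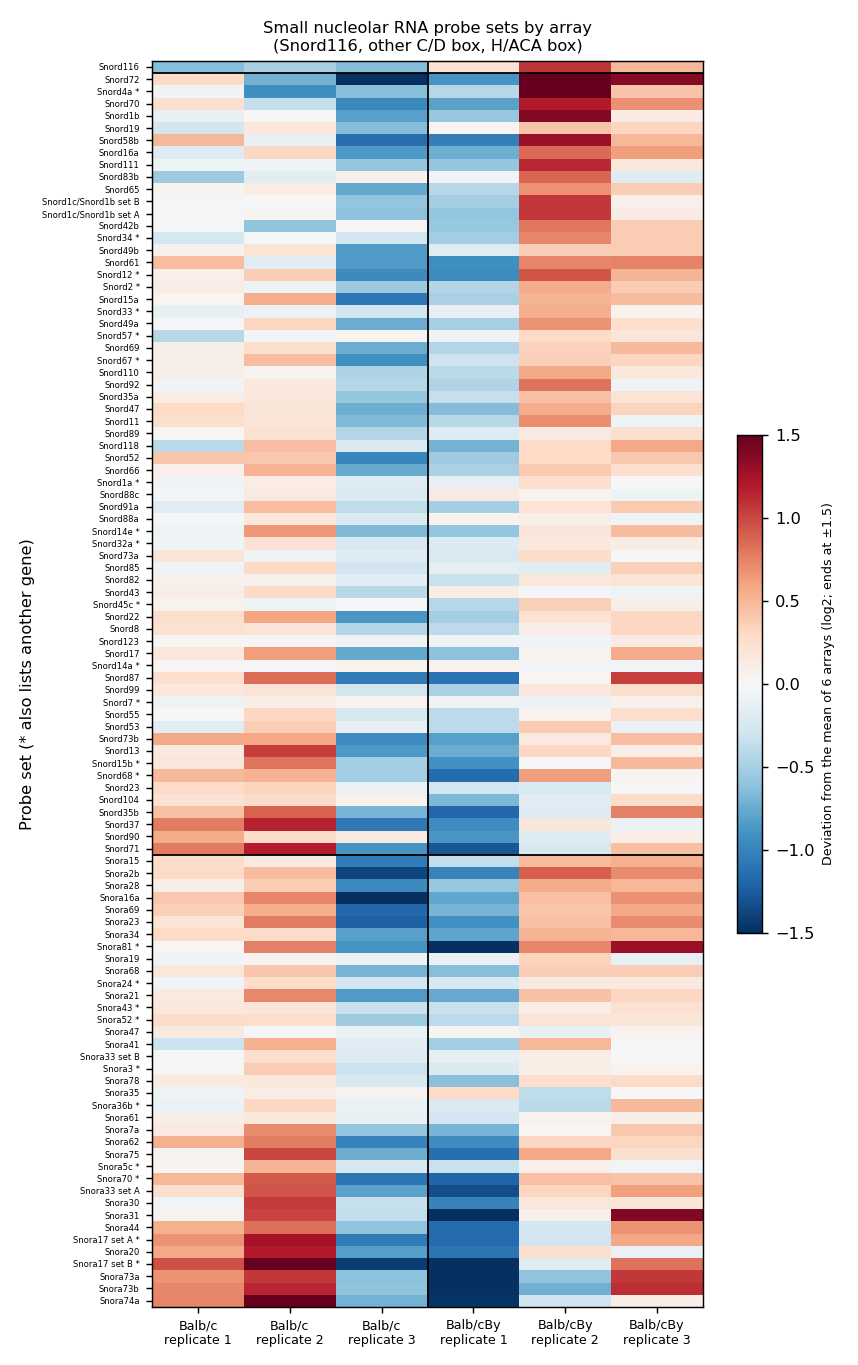
Deviation of each of the 102 probe sets (rows, by class and then by strain difference) from its mean over the 6 arrays (columns), on a log2 colour scale that ends at 1.5 in either direction. The columns of Balb/c replicate 3 and Balb/cBy replicate 1 are mostly blue, as the lowest pair for 77 of the 102 rows, while the Snord116 row at the top splits by substrain.

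Snord116 had Balb/cBy replicate 1 as the lowest array of its group, while its Balb/c replicate 3, at 8.51, was level with replicate 1, at 8.52. Without both arrays its difference was 1.36. Snora35, which lies in the serotonin receptor gene Htr2c and is known from brain, read 7.37, 7.54 and 7.47 in Balb/c and 7.72, 7.05 and 7.42 in Balb/cBy, with its highest value in Balb/cBy replicate 1. Snord123 from Snhg18 was nearly flat, between 7.60 and 7.79, with an SD of 0.081. Snord14a, in a set with Rps13, had an SD of 0.045. The wide spread was thus not common to every member.

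Other nuclear guide and processing RNAs showed the same low arrays. Small Cajal body RNAs, which guide modification of spliceosomal RNA, had them as the lowest pair in 6 of 9 sets and a median SD of 0.44. U small nuclear RNAs with U3 had them in 5 of 7, with a median SD of 0.46. U3 is itself a C/D box RNA, needed to cut the 18S precursor: Rnu3a read 9.92, 10.37 and 8.13 in Balb/c and 7.53, 9.16 and 10.24 in Balb/cBy. Its lowest arrays were Balb/cBy replicate 1 and Balb/c replicate 3, as for Snora74a. Single RNAs such as Terc, Rmrp and Rpph1 had the pair lowest in 5 of 7, but a median SD of only 0.19, against 0.16 for all probe sets. Their median deviations were -0.27 in Balb/c replicate 3 and -0.08 in Balb/cBy replicate 1. MicroRNAs had the pair lowest in 66 of 610 (10.8%). Macrophage markers had the pair lowest in 2 of 4, with a median deviation of -0.46 in Balb/c replicate 3 and -0.10 in Balb/cBy replicate 1. Any part of RNA quality, extraction or labelling in this pattern was not tested, since the labels give no measure of them.

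**Figure D4:**
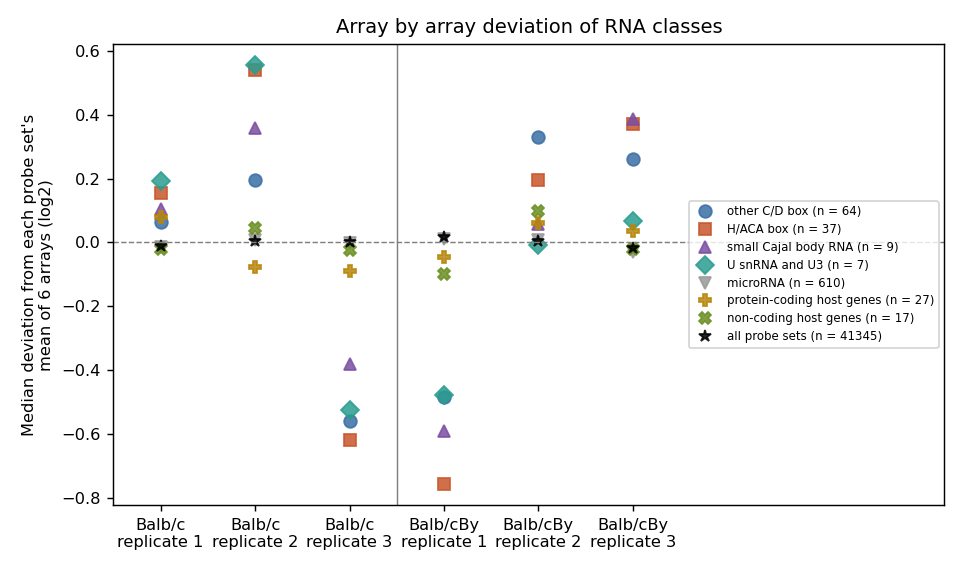
Median deviation of RNA classes from each probe set's mean of 6 arrays (log2), for each array. C/D box, H/ACA box, Cajal body and U small nuclear RNAs lie below -0.3 in Balb/c replicate 3 and Balb/cBy replicate 1, while microRNAs, host genes and all probe sets lie near 0 in every array.

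Host genes varied less between arrays than the RNAs they carry. For 57 pairs of a small nucleolar RNA and a containing gene with a probe set of its own, from 42 genes, the RNA had the larger within-group SD in 48. The median SD was 0.63 for the RNAs and 0.21 for the genes. Separate lists of host genes, some of which contain none of the measured RNAs, showed the same low arrays in part. Balb/c replicate 3 and Balb/cBy replicate 1 were the lowest pair for 5 of 17 genes (29.4%) of a mainly non-coding list. For the protein-coding list it was 7 of 27 (25.9%), against 10.2% of all probe sets. Over the 6 arrays the RNA and its gene had a correlation above 0 in 36 of the 57 pairs, with a median of 0.16. That of Snord15a with Rps3 was 0.975. Over the 57 pairs the strain differences had the same sign in 26, and their Spearman correlation was -0.07, a description over pairs that share hosts. Snhg3 differed by 0.29 (SE 0.33), while its Snora73a and Snora73b were lower by their means. Snhg4 differed by -0.07 (SE 0.12), while Snora74a differed by -1.11.

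**Figure D5:**
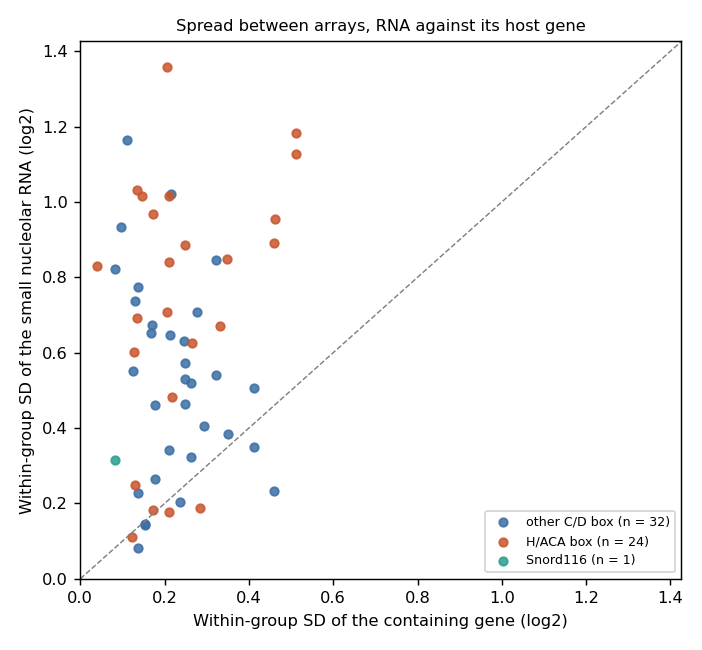
Within-group SD (log2) of each small nucleolar RNA against that of its containing gene, for 57 pairs coloured by class, with a dashed line of equality. In 48 pairs the point lies above the line.

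RNAs of 1 host did not always go the same way. All 4 sets from Snhg16 were higher in Balb/cBy, by 0.09 to 0.62, but 3 of them list Snord1b or Snord1c and may share probes. All 3 from 2410006H16Rik, Snord49a, Snord49b and Snord65, were higher by 0.29 to 0.42. Snhg12 carries Snora16a, Snora44, Snora61 and Snord99, whose differences ran from -0.50 to 0.24. The pair in Rps3 split, with Snord15a at 0.33 and Snord15b at -0.30. The groups overlapped for each of these sets.

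Of the proteins that carry the RNAs, Nop58 read 7.29, 7.16 and 7.36 in Balb/c and 7.45, 8.23 and 7.47 in Balb/cBy. The groups did not overlap, as for 4.35% of all probe sets in that direction, but the difference of 0.44 (SE 0.22) was 0.19 without Balb/cBy replicate 2. Snu13, which binds the C/D box motif first, differed by 0.27 (SE 0.16), and Nop56, its partner protein, by -0.06. Fbl, the methyltransferase gene, had no probe set of its own. All 4 H/ACA box proteins had higher means in Balb/cBy, by 0.00 to 0.20. Dkc1, the pseudouridine synthase, differed by 0.20 (SE 0.23), and Nhp2 and Nop10 differed by 0.20 (SE 0.15) and 0.17 (SE 0.12). Assembly and maturation factors were higher in 11 of 15, with 1 at an unadjusted p under 0.05, where 2.38% of all probe sets were higher at that threshold: Exosc10, the nuclear exosome nuclease that trims the RNAs, at 0.26 (SE 0.11), followed by Shq1, a dyskerin chaperone, at 0.29 (SE 0.14). None of these lists had a gene past the adjusted threshold.

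Ribosome biogenesis genes, whose products act beside the guide RNAs in the nucleolus, were higher in 17 of 20, with a median difference of 0.24, where all probe sets had 0.00 and 48.9% above 0. Of these, 4 reached an unadjusted p under 0.05 in limma, all higher, against 2.38% of all probe sets, and none an adjusted one. Nop2, a ribosomal RNA methyltransferase, read 9.13, 8.78 and 8.68 in Balb/c and 9.07, 9.84 and 9.35 in Balb/cBy, a difference of 0.56 (SE 0.21). Nat10, the acetyltransferase that works with Snord13, differed by 0.39 (SE 0.15). The lean moved with other arrays than those low for the guide RNAs. Balb/c replicate 2 was the lowest array for 15 of 20, with a median deviation of -0.29, and the median deviation was 0.32 in Balb/cBy replicate 2. Without Balb/cBy replicate 2 the median difference was 0.13, and without the replicate 2 arrays of both groups it was 0.04, with 13 of 20 higher. Without Balb/c replicate 3 and Balb/cBy replicate 1, which gives the replicate 2 arrays more weight, 20 of 20 were higher. The H/ACA box proteins and the assembly factors were higher in 2 of 4 and 7 of 15 without both replicate 2 arrays. The listed host genes were split. In the mainly non-coding list 7 of 17 were higher, with Rian at 0.45 (SE 0.19) and Snhg1 at 0.32 (SE 0.17). In the protein-coding list 12 of 27 were higher, with Rpl32 at 0.35 (SE 0.11), while Hnrnpa2b1 was at -0.33 (SE 0.13).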

How the data were processed

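Liver RNA of 6 mice was hybridised to Affymetrix arrays from 500 ng of total RNA each, per the labels. The deposited values are log2 intensities of probe sets, which the authors obtained by RMA according to the submitters' processing notes. RMA's version was not given in the sources used here, nor was the build. Probe sets were named by GEO's platform annotation, which can be old: 23521 had 1 symbol, 1814 several and 16010 none here. RefSeq (GRCm38.p6) matched all 102 members and supplied host genes and sequences.

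All 41345 probe sets were fitted with lmFit and eBayes (limma 3.58.1, R 4.3.3), Balb/cBy against Balb/c, with no covariate, no filter and Benjamini-Hochberg adjustment over the table at 0.05. The smallest p of an exact two-sided permutation test with 3 arrays a group is 0.1. The number of arrays limits the precision. Tested on simulated data of this design over 41345 probe sets, the fit called 54% of 50 changes of 1 log2 unit and 90% of 50 changes of 2. The simulated noise was independent between probe sets and had the SDs of the whole table (median 0.16). Small nucleolar RNAs had a median SD of 0.57 and low arrays in common, so these shares cannot be read as theirs. Within-group SD is pooled over both groups. A list gene was measured by a probe set with its symbol alone, and none was matched for 3 erythroid markers. The median differences of 5 hepatocyte, 4 macrophage, 2 lymphocyte, 3 cholangiocyte and 3 stellate cell markers were 0.00, 0.25, -0.15, -0.05 and 0.02. Single differences ran from -0.04 to 0.55 for hepatocyte markers and from -0.37 to 0.43 for macrophage markers.

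The members and lists were chosen with earlier results of these data known. Named were Snord116, and per box class the 4 largest differences each way, the 4 highest means and the 2 largest SDs, with the 2 smallest p-values of each list and set genes of the Snrpn region; 1 of these is not reported here, and others were chosen after their values were seen, by shared host or known role. Alternatives covered normalization, filters, variance model, duplicates and left-out arrays; leaving out both low arrays, leaving out arrays from the ribosome biogenesis counts, and counting identical rows once in the whole table, were added after seeing the data.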

Additional observations from a re-analysis of the deposited data

How the results depend on the processing

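No small nucleolar RNA passed the adjusted threshold under any alternative tried. At an unadjusted p under 0.05 in limma there were 3 of 102, against 1507 of all 41345 probe sets. Among probe sets with a mean above the 25th percentile there were 1 of 87, against 1171 of 31008. With that filter the C/D box median difference was 0.05. The whole table rose as well when arrays were left out. After both low arrays were left out there were 22 of 102, against 3535 of 41345. Without Balb/cBy replicate 1 alone there were 14, against 2931. Over the whole table the calls in limma ranged from 0 to 1 when 1 array was left out, with 1 call without Balb/c replicate 3. The Snord116 difference ranged from 0.95 to 1.38 with 1 array left out and was 1.14 after a repeated quantile normalization. The medians of the other classes changed sign with single arrays left out, as given above: C/D box from -0.05 to 0.37, H/ACA box from -0.35 to 0.16. The median within-group SD was 0.48 to 0.64 with 1 array left out, 0.23 without both low arrays, and 1.07 as a range in place of an SD, where all probe sets had 0.29. Of 26 named members, 10 changed sign under at least 1 alternative, among them Snora2b and Snora31. The cause was not tested.

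The labels do not say whether the replicate numbers pair the arrays. Arrays with the same number had correlations of -0.21, -0.17 and -0.25 between their deviations from the group mean. Arrays with different numbers had 0.03 to 0.17. Deviations from a mean of 3 arrays are tied to each other, so these values do not settle it. With the replicate number as a block, limma called 0 probe sets, and the Snord116 difference was 1.19 with an adjusted p of 0.594.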
